A study of Rattus norvegicus with 74 samples.

Results

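Mitochondria isolated from the red gastrocnemius of treadmill-trained rats were compared with the whole muscle of the same rats. The members were the 15 mitochondrial libraries (MT) and the 15 whole-muscle libraries (SM) of the trained arm, 30 of the 74 libraries in the series, matched by the rat number that both titles carry. All rats were wild-type male Wistar Kyoto animals that drank water with added deuterium oxide and were 9 weeks old at sampling. Treadmill training began when they were 5 weeks old and lasted 4 weeks, with 5 sessions weekly that built up to 60 min of running at 20 m/min, and muscle was taken 24 h after the final run. A frozen piece of the inner red muscle gave SM, made from 50 ng of RNA. A fresh piece gave MT, in which mitochondria were pulled down with an antibody and treated with RNase-A and proteinase-K, and 10 ng of RNA went into the library. Both were ribodepleted total RNA libraries made with the same kit. The fraction, the RNA input and the sequencing depth changed together, so their parts in any difference cannot be told apart.

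A mitochondrion carries its own small circular genome (mtDNA), which encodes core subunits of the respiratory chain and ATP synthase together with the ribosomal and transfer RNAs needed to translate them. Both of its strands are transcribed as long precursors that are cut at the tRNAs, and some of its messenger RNAs remain joined or overlap. All other mitochondrial proteins are encoded in the nucleus, translated mostly in the cytosol and imported. Red gastrocnemius is rich in mitochondria and in oxidative fibres, and its cytosolic RNA is dominated by contractile genes in fibres of every type.

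Depth differed strongly between the fractions. SM libraries held 19477976 to 39401323 counts, and MT libraries 530397 to 9988027. Nuclear-encoded genes received 430162 to 846719 counts in MT, a 1.97-fold range, while mtDNA genes received 100235 to 9531230, a 95.1-fold range. A floor of 3 counts equalled 0.122 to 0.236 CPM (counts scaled to a common library size by the TMM method of edgeR) in SM and 0.875 to 1.76 CPM in MT, and these floors and all intervals on single libraries cover counting error only. Each library came from a different rat within its fraction. The SM library of rat 2 stood apart in genes of the hepatocyte list, with 4531 counts against at most 94 in any other SM library, so values that depend on it are also given without rat 2.

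The fraction of each library falling on mtDNA genes was the first check of the fraction's label. This mtDNA share in SM was 25.9% at its lowest, 32.8% at its median and 35.9% at its highest. In MT the corresponding values were 17.1%, 43.5% and 95.4%. The 13 mtDNA mRNAs, which mark the organelle, held 5.59%, 7.86% and 11.3% of all counts in SM and 4.94%, 8.94% and 21.6% in MT, so the groups overlapped on these markers, and 5 MT libraries, of rats 2, 5, 26, 27 and 28, lay above the highest SM library. The MT libraries spread over most of the scale and enclosed the SM range, and only 4 of them, from rats 2, 26, 27 and 28, lay above 79% (95% Wilson interval 95.41 to 95.44 for rat 2 and 17.07 to 17.23 for rat 6, the lowest). MT averaged 49.4% ± 27.3 and SM 32.4% ± 2.99 (SD, n = 15 rats), a paired difference of 17.1 points, with the MT library higher in 10 of 15 rats (two-sided paired permutation test over all sign flips, p = 0.0410). The difference was 5.07 points in the 7 rats numbered 2 to 14 (exact permutation p = 0.8125) and 27.6 points in the 8 rats numbered 17 to 28 (exact permutation p = 0.0234). It depended on single rats as well: with each rat left out in turn it ranged from 13.8 to 19.5 points and passed the threshold in 7 of 15 cases. It did not pass without rat 2, at 13.8 points (p = 0.0820), nor without rats 5, 14, 21, 25, 26, 27 or 28, where p lay between 0.0507 and 0.0820.

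**Figure D1:**
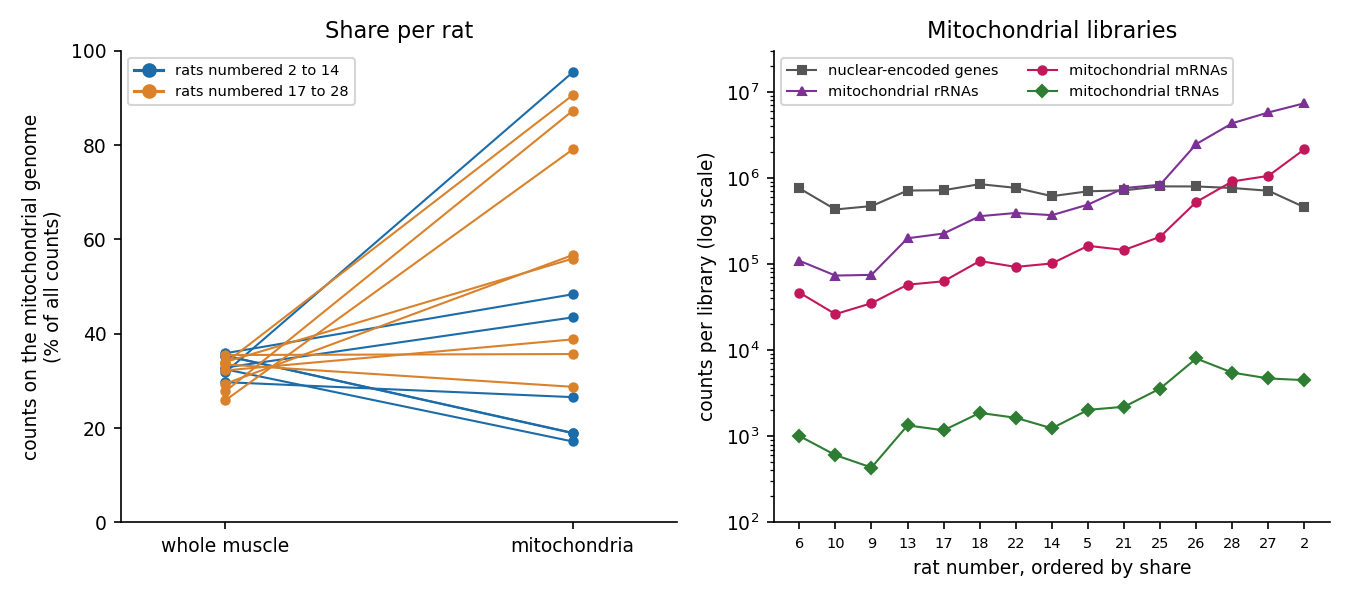
Left, percent of all counts on the mitochondrial genome in the whole-muscle and mitochondrial library of each rat, joined by a line and coloured by the range of rat numbers. Right, counts per mitochondrial library (log scale) for nuclear-encoded genes and for mitochondrial rRNAs, mRNAs and tRNAs, with rats ordered by that share. Muscle libraries sit between 25.9% and 35.9% and mitochondrial libraries between 17.1% and 95.4%, while nuclear-encoded counts stay within a 1.97-fold range.

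Within the mtDNA counts, the make-up differed between the fractions, and this comparison needs no scaling between them. The 22 tRNA genes held 0.0125%, 0.0168% and 0.0283% of mtDNA counts in SM (lowest, median, highest) and 0.0470%, 0.337% and 0.642% in MT. The groups did not overlap, and all 15 rats had the larger share in MT (paired permutation test, p = 6.10e-05, the smallest these rats can give; q = 0.000259 over 17 make-up measures). Counts on the tRNAs varied 18.5-fold among MT libraries, from 433 to 7995, against 82.3-fold for the mtDNA mRNAs. The 2 rRNAs held 77.7% ± 4.86 in MT and 75.5% ± 5.00 in SM (SD, n = 15), and the 13 mRNAs 21.9% ± 4.75 and 24.5% ± 5.00. Neither of these differences passed the threshold (paired permutation test, q = 0.143 and 0.0940), although the mRNA share did when rat 6 or rat 18 was left out (q = 0.0446 and 0.0455). The rRNA gene AY172581.24 held 51.0% of the mtDNA rRNA counts in MT and 49.5% in SM (q = 0.143). Its difference was -1.60 points in rats 2 to 14 and 4.32 points in rats 17 to 28 (exact permutation q = 0.204 and 0.0121).

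Among the 13 mtDNA mRNAs, the subunits of complex IV and ATP synthase encoded at Mt-co1 and Mt-atp6 took smaller shares in MT, and several complex I subunits and cytochrome b took larger ones. Mt-co1, the catalytic core of cytochrome oxidase, made up 40.1%, 42.4% and 45.1% of mtDNA mRNA counts in SM and 29.5%, 35.6% and 43.3% in MT. The groups overlapped, and MT was higher in 1 of 15 rats (difference -6.70 points, paired permutation q = 0.000445). Mt-atp6, the proton-channel subunit of ATP synthase, made up 8.19%, 9.00% and 9.48% in SM and 5.64%, 6.65% and 7.18% in MT. These groups did not overlap, and the share was lower in MT in every one of the 15 rats (difference -2.49 points, paired permutation q = 0.000259). Mt-nd4, a proton-pumping subunit of complex I, was also lower in all 15 rats, at 8.44% against 9.23% on average (q = 0.000259), and Mt-nd4l was lower in all but 2, at 0.768% against 0.951% (q = 0.00125).

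The largest relative gain was that of Mt-nd5, another proton-pumping subunit of complex I. It made up 4.79%, 5.88% and 7.48% of mtDNA mRNA counts in SM and 6.97%, 9.85% and 13.4% in MT, and 14 of 15 rats had the larger share in MT (difference 3.89 points, paired permutation q = 0.000346). The geometric mean ratio of its shares was 1.64. Mt-cyb, the mtDNA-encoded subunit of complex III, was higher in 15 of 15 rats, at 10.5% against 8.63% on average (paired permutation q = 0.000259). The size of these shifts varied among libraries. In rat 6, with the lowest mtDNA share, the log2 ratios of Mt-nd5, Mt-cyb and Mt-co1 were 1.19, 0.54 and -0.55. In rat 2, with the highest, they were -0.10, 0.12 and 0.11, and in rat 28, at 87.3% mtDNA, 0.30, 0.03 and -0.08. Mt-atp6 stood at -0.66 in rat 6 and -0.33 in rat 2. The relation of these ratios to the mtDNA share was not tested. Mt-nd1 and Mt-nd2 of complex I and Mt-co2 of complex IV were each higher in 14 of 15 rats, with mean shares of 6.06% against 4.65%, 7.31% against 6.12% and 4.71% against 4.08% (paired permutation q = 0.000346, 0.00115 and 0.000648). Mt-co3 was higher in 13 rats, at 6.34% against 5.89% (q = 0.0111). Mt-nd6, which alone among the mRNAs is encoded on the other strand, was higher in 11 rats, at 3.29% against 2.51% (q = 0.0415), but not past the threshold as an unpaired test (q = 0.0613), and with single rats left out it passed in 6 of 15 cases. Mt-atp8 and Mt-nd3 did not pass (q = 0.237 and 0.820), and both differed in sign between the rats numbered 2 to 14 and those numbered 17 to 28. Mt-atp8 overlaps Mt-atp6 and Mt-nd4l overlaps Mt-nd4, so how counts were divided within each pair is uncertain.

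**Figure D2:**
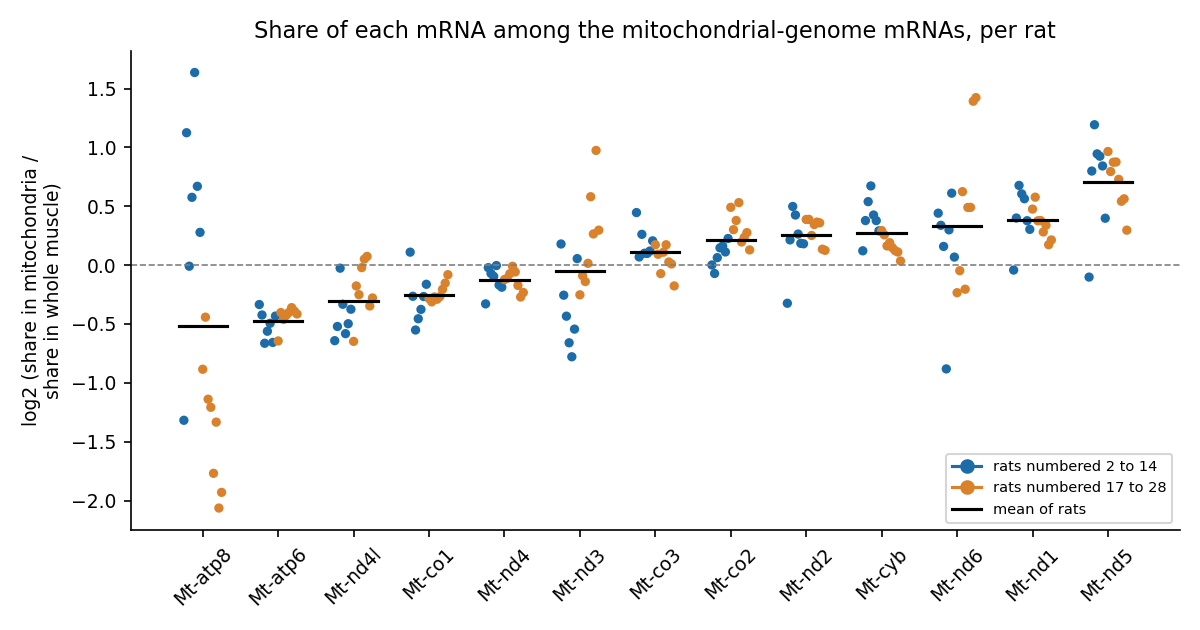
Log2 ratio of each mRNA's share of the mitochondrial-genome mRNA counts, mitochondria over whole muscle, with a point per rat coloured by rat number range and a bar at the mean of the rats. Mt-atp6 lies below 0 in all 15 rats, Mt-cyb lies above 0 in all 15, and Mt-atp8 and Mt-nd3 scatter on both sides.

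In the test across all genes, 21312 genes were tested and 20069 were called, which is 94.2% (edgeR quasi-likelihood test with the rat as a block, adjusted p under 0.05 by Benjamini-Hochberg). Of all genes tested, 59.2% were called higher in MT and 35% lower, and the median log2 fold change of all genes was 1.31. With nearly all genes called, a call alone separates no list from the rest. Counts of calls in lists are therefore to be set beside those of genes of similar SM level, given below, and list medians beside 1.31. That reference itself moved with the setting, to 1.68 with RLE factors, 2.66 with library totals, 1.97 without rat 2, 3.47 without the filter, 0.45 with DESeq2 and 0.07 in thinned libraries. Of the calls, 62.9% were higher in MT, a split that was 84.1% with library totals. In libraries thinned to 530397 counts, where 5181 genes could be tested, it was 52.1%. There were 12580 genes called higher and 2752 called lower under TMM with and without the block, under the RLE scaling and under library totals alike, 76.4% of the main calls. In this scaled test the 13 mtDNA mRNAs had log2 fold changes of -1.63 to -0.39 (median -1.05), and 5 were called lower and none higher. That direction did not hold under every setting: 10 of the 13 were above 0 without the replicate block and with library totals, and 13 in thinned libraries, with 0, 2 and 4 called higher. Without rat 2, 11 of the 13 were called lower. Of the mtDNA tRNA genes, 9 of 22 were tested, 8 were called higher and none lower, with a median of 3.31, and those 9 were above 0 under TMM, RLE and library totals.

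Nuclear-encoded genes spanned a far narrower range of levels in MT than in muscle. Of all nuclear-encoded genes, with no filter, the 14383 with a mean below 0.1 CPM in SM had a median MT level of 1.88 CPM, and the 3445 genes at 0.1 to 1 CPM had 5.77. The 4661 genes at 1 to 10 CPM in SM had a median of 8.87 CPM in MT, and the 1177 genes at 100 to 1000 CPM had 14.5. The 89 genes above 1000 CPM in SM, with a median there of 2350, had a median of 23.7 CPM in MT. Genes rare in SM passed the filter of the gene test only where they were high in MT, so among the 6024 tested genes below 0.1 CPM in SM the MT median was 5.44 CPM, and that higher value is set in part by the filter. From the 4651 tested genes at 1 to 10 CPM to those at 100 to 1000 CPM, where the filter removed few or no genes, the SM median rose 41.5-fold and the MT median 1.64-fold. The median log2 fold change was 1.09 in the former and -3.62 in the latter. With 0.5 CPM added to both levels, the median log2 ratio of single rats lay between 0.95 and 1.08 in the former and between -3.79 and -3.35 in the latter. All 1177 tested genes at 100 to 1000 CPM were called lower, as were all 89 above 1000 CPM (median log2 fold change -6.80). Of the 6768 at 10 to 100 CPM, 5634 were called lower and 585 higher (median -1.22). Of the 4651 at 1 to 10 CPM, 547 were called lower and 3434 higher. Of the 2579 at 0.1 to 1 CPM, 1 was called lower and 2565 higher, and all 6024 below 0.1 CPM were called higher. Lists of genes abundant in SM are therefore to be set beside these values. The SM level enters both the groups and the ratio, and CPM is not corrected for gene length. MT levels near the floor rest on a few counts per library. The unfiltered medians were added after the data were seen.

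**Figure D3:**
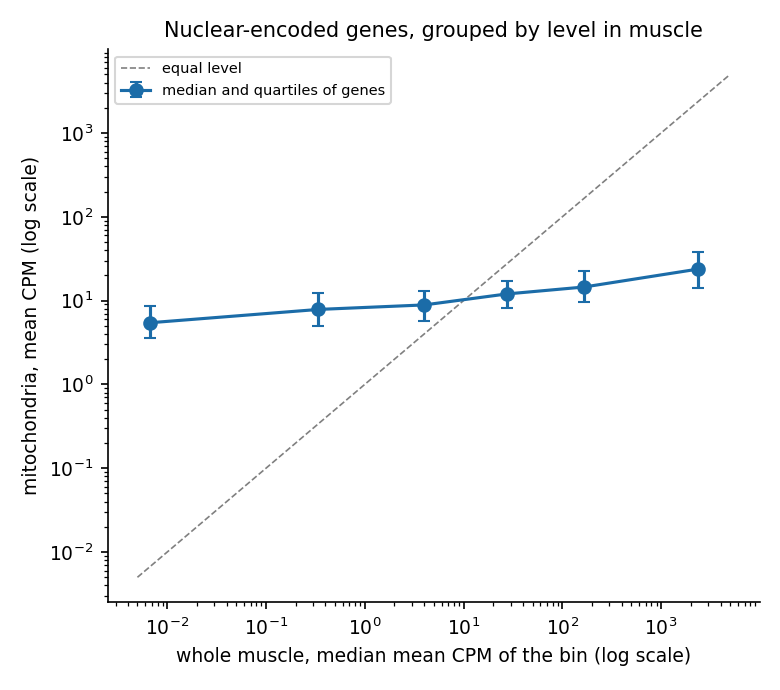
Mean CPM in mitochondria (median and quartiles of the genes, log scale) against the median of the mean CPM in whole muscle for 6 groups of tested nuclear-encoded genes (log scale), with a dashed line at equal level. The muscle medians run from 0.00666 to 2350 CPM, and the mitochondrial medians from 5.44 to 23.7 CPM, the lowest of which is 1.88 CPM without the filter.

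Transcripts for nuclear-encoded respiratory chain subunits were among the lower ones in MT. All 1177 tested nuclear-encoded genes at 100 to 1000 CPM in SM were called lower too, with a median log2 fold change of -3.62. Counts of calls alone therefore do not set apart lists of genes that abundant. Complex I takes electrons from NADH, and 33 of its 34 tested loci were lower (median log2 fold change -4.83). Ndufs1, its largest iron-sulfur subunit, was at 480.4, 626.7 and 781.9 CPM in SM (lowest, median, highest) and 5.86, 9.34 and 12.0 CPM in MT. The groups did not overlap, and its log2 fold change, -6.08, had a small error (SE 0.11, edgeR adjusted p = 5.02e-29). Ndufv2 had a log2 fold change of -7.19 (SE 0.14). A second locus carrying the symbol Ndufb2 was the exception, at 0 counts in every SM library and 3 to 11 in MT, and a locus of Ndufs5 had 344 to 721 counts in SM and 0 in every MT library, at least 15.3-fold lower against the floor per library. Both symbols are carried by 2 loci, so the division of reads between near-identical copies is uncertain.

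All 4 subunits of complex II, which links the citric acid cycle to the respiratory chain, and all 8 tested subunits of complex III were lower, with medians of -5.59 and -6.04. Sdha, the catalytic subunit of complex II, went from a median of 926.3 CPM in SM to 14.7 CPM in MT without overlap (log2 fold change -5.98, SE 0.10). Uqcrc2 and Cyc1 of complex III had log2 fold changes of -5.74 and -6.33. In complex IV, 10 of 11 nuclear-encoded subunits were lower (median -6.24), Cox4i1 by -6.04 and Cox5b by -6.77 on the log2 scale. The exception was Cox7a1, the muscle form of a small cytochrome oxidase subunit, with 4.54, 7.39 and 13.6 CPM in SM and 6.47, 10.96 and 15.2 CPM in MT. Its groups overlapped, and its log2 change, 0.50 (SE 0.13, edgeR adjusted p = 0.000682), lay below the 1.31 of all genes. In rats 2 to 14 alone Cox7a1 was not called (0.27, edgeR adjusted p = 0.131). In ATP synthase, 14 of 15 loci were lower (median -5.63). Atp5f1b, its catalytic beta subunit, was at 2477, 3005 and 3858 CPM in SM and 3.23, 7.10 and 19.6 CPM in MT, which gave -8.55 on the log2 scale (SE 0.20, adjusted p = 1.82e-26 in edgeR). Atp5f1a had a log2 fold change of -7.56. The exception was again a second locus, of Atp5mc1, with 0 to 4 counts in SM and 6 to 16 in MT.

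The other mitochondrial lists were lower as well, to different degrees. Medians of all tested nuclear-encoded genes fell with SM level, from -1.22 at 10 to 100 CPM to -3.62 at 100 to 1000 CPM. The part of SM level in the differences among lists was not tested. All 18 tested genes of the citric acid cycle and pyruvate dehydrogenase were lower (median -5.10). Ogdh, of the oxoglutarate dehydrogenase complex, had 971.6, 1137 and 1420 CPM in SM and 16.3, 21.5 and 25.97 CPM in MT, without overlap (log2 fold change -5.78, SE 0.11). Of 19 fatty acid oxidation genes 18 were lower (median -4.22), among them Acadm, the medium-chain acyl-CoA dehydrogenase, at -6.39, and Hadha of the trifunctional protein at -5.13. Etfb, an electron carrier subunit with 0 to 3.19 CPM in MT, was not called (log2 fold change 0.01, SE 0.29). All 29 tested genes of protein import were called lower (median -2.84), though with library totals 20 were lower and 2 higher. Hspa9, the matrix chaperone that pulls proteins in, stood at -4.92 and Samm50, of the outer-membrane sorting machinery, at -3.64.

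Of 70 mitochondrial ribosomal protein genes 69 were lower (median -2.21), 40 lower and 1 higher with library totals. Mrpl12 and Mrpl54 had log2 fold changes of -4.40 and -4.77. Of 81 cytosolic ribosomal protein loci 78 were lower (median -3.78). Rplp0, of the ribosomal stalk, had 337.0, 425.2 and 558.1 CPM in SM and 3.76, 8.68 and 27.5 CPM in MT (log2 fold change -5.61, SE 0.18), and the muscle form Rpl3l had -5.25. Among the lists of nuclear-encoded mitochondrial genes, the median nearest to 0 was that of the 31 genes that replicate, transcribe and translate mtDNA, with 26 lower and 2 higher under TMM (median -1.05) but 7 lower and 9 higher with library totals. Lrpprc, which stabilises mtDNA mRNAs, and Tufm, the mitochondrial elongation factor, had -3.65 and -4.16, whereas Polg2, the accessory subunit of the mtDNA polymerase, had 1.42, 2.94 and 3.53 CPM in SM and 5.39, 7.81 and 12.9 CPM in MT, without overlap (log2 fold change 1.62, SE 0.16, edgeR adjusted p = 3.10e-11). The change of Polg2 lay 0.31 above the median of all genes, and tested genes at 1 to 10 CPM in SM had a median of 1.09. As a share of nuclear-encoded counts, the list of these 31 genes was 0.0964%, 0.112% and 0.129% in SM. In MT it was 0.111%, 0.121% and 0.127%, so the groups overlapped. The citric acid cycle list, of 18 genes, held a median of 0.873% in SM, so the lists also differed in their SM level.

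Contractile and glycolytic genes were far lower in MT than in muscle. All 89 tested nuclear-encoded genes above 1000 CPM in SM were called lower too, with a median log2 fold change of -6.80. All 10 fast-fibre genes tested were lower (median -8.85), as were all 10 slow-fibre genes (median -6.68) and all 18 genes of the rest of the sarcomere (median -7.36). The fast-fibre list held 9.12%, 12.2% and 14.4% of nuclear-encoded counts in SM and 0.0801%, 0.104% and 0.220% in MT. The sarcomere list held 19.2%, 21.9% and 25.3% in SM and 0.376%, 0.587% and 0.929% in MT. Neither pair of groups overlapped. Acta1, skeletal muscle actin, had the lowest log2 fold change among genes of at least 5 CPM in both groups, with 26074, 36465 and 43792 CPM in SM and 9.38, 18.4 and 253 CPM in MT (-10.32, SE 0.48, edgeR adjusted p = 2.31e-14). Next came Mylpf (-9.87), the fast regulatory light chain, Ckm (-9.51), muscle creatine kinase, the unnamed locus AABR07005775.1 (-9.34), Myl1 (-9.17), the fast essential light chain, and Myh4 (-9.13), the fast IIB myosin heavy chain.

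Myh7, the slow myosin heavy chain, had 3794, 16551 and 27587 CPM in SM and 29.2, 43.0 and 99.0 CPM in MT (log2 fold change -8.30, SE 0.26). Myh7b stood apart within its list, at -0.83 (SE 0.13) under TMM but 0.52 with library totals and 1.08 in thinned libraries. Ttn, which encodes titin, was among the genes with the most MT counts and had a log2 fold change of -7.29, and Neb, which encodes nebulin, had -7.44. Of 15 loci of glycolysis and glycogen breakdown 14 were lower (median -6.37), with Pygm, muscle glycogen phosphorylase, at -8.14 and Gapdh at -7.76. The locus that was higher, at 1.78, carries the symbol Aldoa together with another locus at -2.92. All 15 excitation-contraction coupling genes were lower (median -4.87), including Ryr1, the calcium release channel, at -6.08 and Casq1, its calcium-binding partner, at -7.43.

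**Figure D4:**
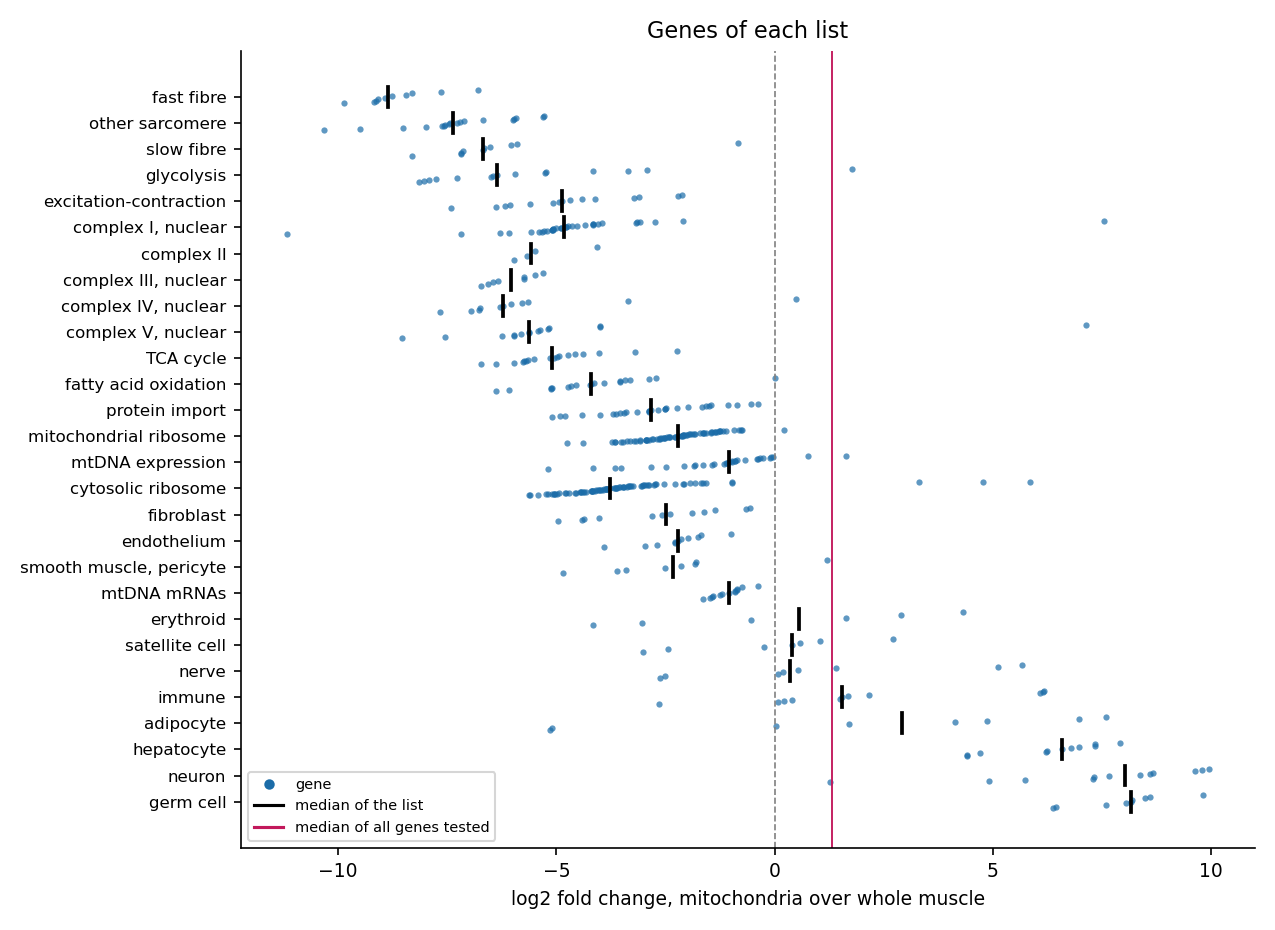
Log2 fold change of mitochondria over whole muscle for every tested gene of 28 lists (points), with the median of each list (black bar), a dashed line at 0 and a line at the median of all genes tested, 1.31. Contractile, glycolytic and nuclear-encoded respiratory lists lie far to the left, and genes of liver, brain and germ cells to the right.

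Among markers of other cells of the muscle, those of endothelium, fibroblasts and smooth muscle were mostly lower in MT by the TMM-scaled gene test. Leukocyte markers lay near the median of all genes in that test. MT was a pull-down of mitochondria treated with RNase-A and proteinase-K, so these values do not measure numbers of cells. In bulk libraries, fewer cells of a type and less RNA per cell cannot be told apart either, and the cause of the differences was not tested. All 11 endothelial markers were lower (median -2.22; with library totals 7 were called lower and none higher, and in thinned libraries 5 lower and 2 higher), and Cdh5, the endothelial cadherin, stood at -3.91. All 12 fibroblast and matrix markers were lower (median -2.49; 7 lower and none higher with library totals, and 7 lower and 3 higher of 11 in thinned libraries). Col3a1, a fibrillar collagen, had 1402, 1728 and 2700 CPM in SM and 23.5, 42.2 and 825.0 CPM in MT (log2 fold change -4.97, SE 0.50, edgeR adjusted p = 9.67e-08). Smooth muscle and pericyte markers were lower in 7 of 8 cases (median -2.33; 5 lower and 1 higher with library totals, and likewise of 6 in thinned libraries), with Myh11 at -2.52. Of 11 leukocyte markers 9 were called higher, where 59.2% of all genes were, and their median of 1.54 lay 0.22 above that of all genes and below it with nuclear-encoded genes only, without the filter and without rat 2. Values in the list included Cd3e of the T-cell receptor at 6.18, which rests on 0 to 7 counts in SM and 15 to 33 in MT. The lysozyme gene Lyz2, with 510 to 917 counts in SM and 6 to 34 in MT, stood at -2.65. Adipocyte markers had 5 of 8 higher and 2 lower, while both members tested in thinned libraries, 2 in number, were lower. As a share of nuclear-encoded counts, the endothelial list held 0.0960% to 0.152% in SM and 0.0750% to 0.102% in MT. The fibroblast list held 0.450% to 1.03% in SM and 0.139% to 1.08% in MT, so both lists overlapped between groups. The smooth muscle list held 0.0687% to 0.122% in SM and 0.0484% to 0.0644% in MT, without overlap. The leukocyte list was higher in MT, at 0.0550% to 0.0651% against 0.00783% to 0.0142% in SM, without overlap. The adipocyte list was lower in MT, at 0.0215% to 0.0292% against 0.0427% to 0.0816% in SM, without overlap. Ucp1 of brown fat, at 7.59, had 0 to 2 counts in SM and 0 to 22 in MT, so it passed the filter through MT. Lpl, lipoprotein lipase, stood at -5.15. Red cell, nerve and satellite cell markers had medians of 0.55, 0.36 and 0.39, each with members called in both directions.

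Genes that muscle is not known to use had counts in every MT library. Odorant, vomeronasal, taste and trace amine receptor genes, which sense chemicals in the nose, mouth and vomeronasal organ, held 0.00109%, 0.00125% and 0.00162% of nuclear-encoded counts in SM and 1.65%, 1.79% and 2.03% in MT. The groups did not overlap, and all 15 rats had the larger share in MT (paired permutation test, p = 6.10e-05). Of the 1309 loci in the tables, 937 had no count in any SM library and 9 had none in any MT library. The 709 loci tested had to be high in MT to pass the filter, so their median log2 fold change of 8.27 (4.61 with loci at 0 in every SM library set at their bound) describes the loci that passed. Vom2r13, a vomeronasal receptor, had 0 counts in all SM libraries and 14.7, 18.8 and 23.6 CPM in MT, at least 80.4-fold higher against the floor per library. Olr63, an odorant receptor with 2.40 to 5.85 CPM in SM, was not called (log2 fold change -0.28, SE 0.19).

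Hepatocyte, neuronal and germ cell genes also had counts in MT. All their tested loci (11, 12 and 9) were called higher, where 59.2% of all genes tested were. So were all 6024 tested nuclear-encoded genes below 0.1 CPM in SM and 2565 of the 2579 at 0.1 to 1 CPM. These calls therefore do not set the 3 lists apart. In addition, 6 of 12 neuronal and 10 of 11 germ cell loci had at most 3 counts in every SM library, so those tested among them passed the filter through MT. Without the replicate block 9 of the 11 hepatocyte loci were called. Neuronal genes held at most 0.00142% of nuclear-encoded counts in SM and 0.0501% to 0.0688% in MT, and germ cell genes at most 3.22e-05% in SM and 0.0176% to 0.0240% in MT. Gad2, the enzyme that makes the transmitter GABA, had no count in SM and 6.41, 11.4 and 21.1 CPM in MT, at least 47.3-fold higher, and Ddx4, a germ cell helicase, was at least 43.2-fold higher. The hepatocyte gene Alb, albumin, and C3, complement component 3, headed the genes of at least 5 CPM in both groups, and both rested on the SM library of rat 2. C3 is not in the hepatocyte list and had at least 8 counts in every SM library. Alb had 0 to 254 CPM in SM with a median of 0, and 6.39, 10.6 and 18.8 CPM in MT. Its log2 change was 4.40 (SE 0.98) with rat 2, 5.94 without it, and -0.56 without the replicate block (edgeR adjusted p = 0.637), and C3 stood at 4.38 with rat 2 and 4.75 without.

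After these came Golt1b, a Golgi transport protein, with 11.7, 13.5 and 19.1 CPM in SM and 150.2, 181.9 and 235.3 CPM in MT, without overlap (log2 fold change 3.69, SE 0.08, edgeR adjusted p = 1.11e-27). The protocadherin Pcdhac2 had 3.56, the membrane protein gene Csmd1 3.55 and Col7a1, the collagen of anchoring fibrils, 3.34. Among genes with at most 3 counts in any SM library, those with the highest MT levels were AABR07066700.1 (89.7 to 117.5 CPM in MT), Spetex-2E (65.8 to 112.4 CPM, and no count in SM, at least 401-fold higher) and Efcab3, an EF-hand gene (51.3 to 88.7 CPM). Genes without a symbol held 1.16% to 2.27% of nuclear-encoded counts in SM and 12.4% to 15.9% in MT, and 13 of the 15 nuclear-encoded genes with the most CPM in MT had none. ENSRNOG00000067240, which the tables label protein-coding, had 0.187, 0.946 and 2.00 CPM in SM and 1510, 1658 and 2099 CPM in MT (log2 fold change 10.80, SE 0.19). The 10940 genes with at most 3 counts in all SM libraries together held 10.9% to 12.1% of nuclear-encoded counts in MT.

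Among the biotypes of nuclear-encoded counts, protein-coding genes and ribozymes took smaller shares in MT and most other non-coding classes larger ones. Protein-coding genes held 97.5%, 98.5% and 98.8% in SM and 88.7%, 92.0% and 92.3% in MT, lower in 15 of 15 rats (paired permutation test, q = 7.12e-05 over 7 biotypes). Long non-coding RNA genes held 0.562%, 0.625% and 0.671% in SM and 6.004%, 6.19% and 6.85% in MT, a 9.96-fold ratio of geometric means. The ratio was 72.3 for small nuclear RNAs of the splicing machinery, 16.3 for small nucleolar RNAs that guide rRNA modification and 6.75 for pseudogenes, each without overlap and higher in 15 of 15 rats (q = 7.12e-05). Ribozymes went the other way, from 0.382% ± 0.0780 in SM to 0.0313% ± 0.0178 in MT (SD, n = 15), lower in 15 of 15 rats (q = 7.12e-05). Many of these loci are near-identical copies, so their shares are uncertain. Nuclear-encoded rRNA genes varied widely, at 0.827% ± 1.18 in MT and 0.292% ± 0.329 in SM (SD, n = 15), higher in MT in 11 rats (difference 0.534 points, paired permutation q = 0.0473). That difference passed in neither range of rat numbers (exact permutation q = 0.0625 and 0.227), and with single rats left out it passed in 6 of 15 cases, the highest q being 0.0946, without rats 2, 27 or 28. Leaving out the 10 most abundant nuclear-encoded genes of each fraction removed the main rRNA locus, ENSRNOG00000068307. The minor rRNA loci that remained held 0.0937% in MT and 0.0193% in SM. That difference of 0.0745 points was higher in MT in 15 of 15 rats (paired permutation q = 6.10e-05). By TMM-scaled CPM, a different measure from the share of nuclear-encoded counts, the main locus averaged 1934 in MT and 2934 in SM. On that scale it was higher in MT in 2 rats, and its log2 fold change was -1.62 (SE 0.49), and -1.91 to 0.43 in other settings. TMM factors had a median of 2.27 in MT and 0.659 in SM, so CPM and share can differ in direction.

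Single non-coding RNAs are given by their values. Rpph1 is labelled a ribozyme, so its counts also enter the ribozyme share above, and the 2 results are not separate observations. Rpph1, the RNA of ribonuclease P, which trims tRNA precursors, had 1938, 3329 and 5143 CPM in SM and 4.30, 13.1 and 144 CPM in MT, without overlap (log2 fold change -7.38, SE 0.51, edgeR adjusted p = 7.29e-10). RNase_MRP, the RNA of the related enzyme that processes rRNA, had 514.4, 670.7 and 824.3 CPM in SM and 1.66, 15.2 and 51.5 CPM in MT (log2 fold change -5.44, SE 0.38). A locus of Metazoa_SRP, the RNA of the signal recognition particle that directs secreted proteins to the endoplasmic reticulum, stood at -5.07 (SE 0.47), and 26 loci carry that symbol. Y_RNA, at a locus with at most 3 counts in any MT library, had 14.5 to 53.2 CPM in SM. H19, an imprinted long non-coding RNA abundant in muscle, stood at -8.07 (SE 0.22). Rpph1 was the single tested gene of a list of non-coding RNAs described in mitochondria, and without the filter 4 were tested, of which 2 were called higher and 1 lower. RNase_MRP and Metazoa_SRP were chosen after their values were seen, and the Y_RNA locus, 1 of 18, by a rule that requires low MT counts.

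Across the 15 MT libraries, the mtDNA share moved with several of these measures, and 6 such relations were computed. Library totals, from 530397 to 9988027 counts, rose largely with the mtDNA share, while nuclear-encoded counts spanned a 1.97-fold range. Relations with the mtDNA share and with depth therefore cannot be told apart. The fibroblast list held 0.139%, 0.163% and 1.08% of nuclear-encoded counts in MT, and its share rose with the mtDNA share (Pearson r = 0.744, permutation p = 1.00e-05, the smallest 100000 resamples can give; Spearman rho = 0.911, p = 2.00e-05; adjusted p = 3.00e-05 and 6.00e-05). Without rats 2 and 27, the libraries farthest from the median mtDNA share, r was 0.865, and rho was 0.857 in rats 2 to 14 and 0.952 in rats 17 to 28. The tRNA share of mtDNA counts fell as the mtDNA share rose (r = -0.910 and rho = -0.918, permutation p = 1.00e-05 for both; adjusted p = 3.00e-05 and 6.00e-05), and r was -0.849 without rats 2 and 27. In this relation mtDNA counts enter both measures.

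The fast-fibre share had r = 0.788 and rho = 0.686 (permutation p = 0.000470 and 0.00634; adjusted p = 0.000705 and 0.0127), and r = 0.603 without rats 2 and 27. The cytosolic ribosome list had r = 0.836 and rho = 0.657 (permutation p = 5.00e-05 and 0.00893; adjusted p = 0.000100 and 0.0134), but rho = 0.143 within rats 2 to 14. The sarcomere list did not pass (r = 0.223, permutation p = 0.421) and neither did the sensory receptor list (r = 0.404, permutation p = 0.134; adjusted p = 0.421 and 0.161). The mtDNA shares left a gap between 56.7% and 79.1%. Within the 11 libraries below it, the relation had r = 0.765 for the fibroblast list and -0.819 for the tRNAs (permutation p = 0.00642 and 0.00193), but r = 0.184 for the fast-fibre list and 0.466 for the cytosolic ribosome list (permutation p = 0.594 and 0.133), so those relations rest on the 4 libraries above the gap. For the sensory receptor list they gave r = 0.568 and rho = 0.636 (permutation p = 0.0601 and 0.0416, not adjusted), and for the sarcomere list r = -0.020 (permutation p = 0.952). The part of these co-varying measures in the differences between MT and SM was not tested.

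**Figure D5:**
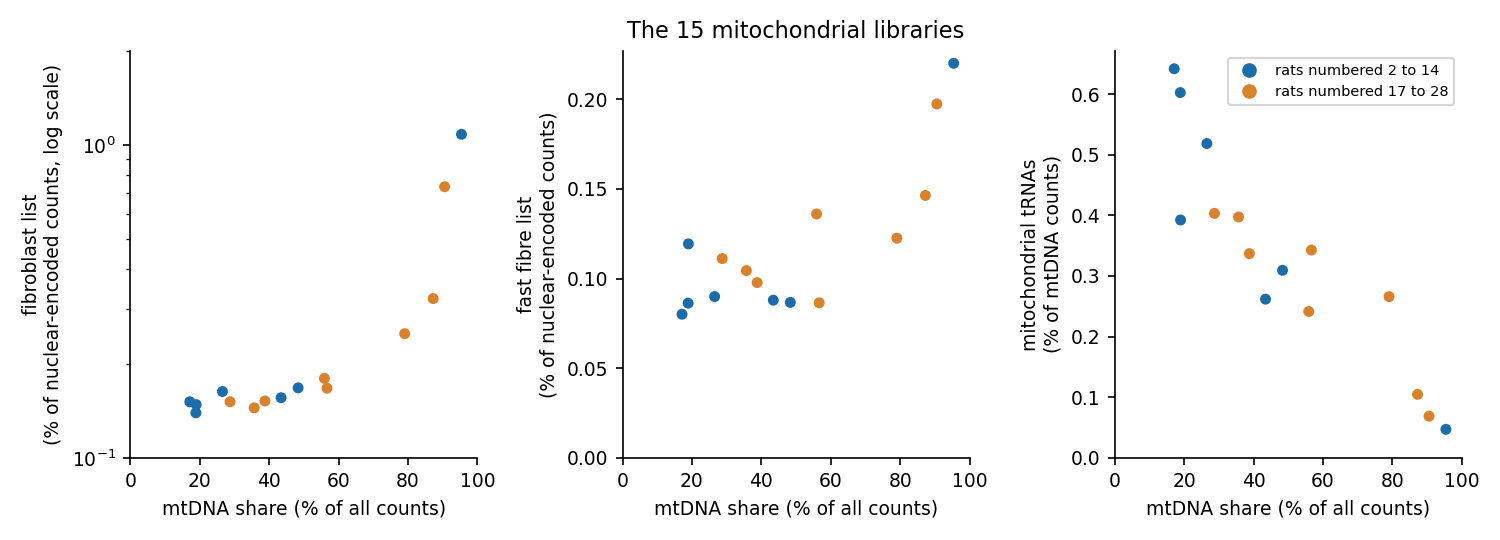
Share of nuclear-encoded counts on fibroblast genes (log scale) and on fast-fibre genes, and share of mtDNA counts on the mitochondrial tRNAs, each against the mtDNA share of all counts in the 15 mitochondrial libraries, coloured by rat number range. The fibroblast share reaches 1.08% and the tRNA share falls to 0.0470% in the library with 95.4% mtDNA counts.

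The difference between MT and SM was also tested against that in the sedentary rats, whose 15 MT and 15 SM libraries came from rats on a treadmill that stood still. Of 27684 genes tested for an interaction of fraction and training, 3 were called, or 0.0108% (edgeR quasi-likelihood test with the rat as a block, Benjamini-Hochberg adjusted), and 2008 had an unadjusted p under 0.05. DESeq2 called 7, edgeR without the replicate block 5 and edgeR with library totals 0. Tcte1, a gene of the dynein regulatory complex of cilia and sperm tails, had 52, 146 and 239 counts in SM and 16, 37 and 62 in MT of trained rats (lowest, median, highest), and medians of 33 and 45 in sedentary rats. Its log2 difference between trained and sedentary was -1.91 (SE 0.20, edgeR adjusted p = 1.80e-07), and with library totals -2.11 (adjusted p = 0.312). Lgr6, a receptor for R-spondins, had medians of 179 counts in SM and 61 in MT of trained rats and 109 and 62 in sedentary rats (log2 difference -0.73, SE 0.13, edgeR adjusted p = 0.0184, and 0.0895 without the replicate block). In both genes the median count in MT was close between the arms, and the median in SM was higher in the trained rats.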

How the data were processed

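The deposited values were counts per gene from the authors, whole numbers in separate tables for MT and SM over 30560 genes, 37 of them on the mitochondrial genome. Per the submitters' processing notes, FastQC 0.74, cutadapt 4.6, STAR 2.7.11a, HTSeq and the build mRatBN7.2 were used; the annotation release and the strand setting are not given in the sources used here, so antisense and overlapping genes are uncertain. Symbols came from the tables, and no coordinates or gene lengths were used. Libraries were grouped by title and paired by rat number, because per the labels each mitochondrial preparation came from the muscle it is compared with; the MT and SM libraries of a rat deviated together only weakly (median correlation 0.0189 over 13581 genes, against -5.03e-05 for different rats, with 2 of 15 pairs over 0.1). No 2 libraries agreed within sampling noise (smallest chi-square per degree of freedom 1.20).

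Genes were tested with edgeR 4.0.16 in R 4.3.3 (quasi-likelihood, TMM, filterByExpr, robust, the rat as a block) and adjusted by the Benjamini-Hochberg method; standard errors are |log2 fold change| divided by the root of F. In count tables simulated with the same profile in both fractions, 26580 genes were tested. Of 50 well-counted genes changed per fold, 98% were recovered at 2-fold and 100% at 4-fold. The simulation lacked the wide difference between the fractions, so it says nothing on the scaling used here or on genes near the floor. Shares per library were compared by paired permutation over all sign flips (smallest p 6.10e-05) with scipy 1.17.1, numpy 2.4.6 and pandas 2.3.3. Alternatives were DESeq2 1.42.0, no block, RLE factors, library totals, nuclear-encoded genes only, no filter, thinning, either range of rat numbers and rats left out.

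The comparison and its gene lists were chosen with earlier results of these data known; the shares within mtDNA counts, the relations across MT libraries and the runs without rat 2 were added after the data were seen. Named genes were the mtDNA mRNAs and rRNAs, the 6 highest and 6 lowest by log2 fold change at 5 CPM or more in both groups, the 3 highest in each fraction with at most 3 counts in every library of the other, in each list the 2 highest in SM and the 1 with the highest log2 fold change, the 5 highest in MT with a symbol and the tested non-coding RNAs of 2 lists; others are given as examples of their list. A few genes that this rule names are not reported here.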

Additional observations from a re-analysis of the deposited data

Results flagged for a closer look

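In 3 genes the difference between mitochondria and muscle differed between trained and sedentary rats by the interaction test of edgeR (Benjamini-Hochberg adjusted, n = 15 rats per arm). The log2 difference, trained minus sedentary, was -1.91 for Tcte1 and -0.73 for Lgr6, whose values stand above. It was -3.53 (SE 0.63, adjusted p = 0.0184) for ENSRNOG00000065488, a gene without a symbol that had 0 to 10 counts in MT and 0 to 7 in SM of trained rats, and medians of 6 and 0 in sedentary rats, so it rests on very few counts. With library totals in place of TMM these differences were -2.11, -0.80 and -3.53, and the adjusted p-values 0.312, 1 and 0.106.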

How the results depend on the processing

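The gene test of MT against SM called 15110 of 16338 genes with DESeq2 and 17339 to 28345 in the other full-depth settings, against 20069; 4219 of 5181 were called in thinned libraries (2200 higher, 2019 lower), where 1819 genes were called the other way round, as were 761 with library totals, 62 with DESeq2 and 31 with RLE. Without the filter 20401 were higher, and with library totals 2752 were lower. Without the replicate block 20092 genes were called, 20011 of them in the same direction, and the interaction gave 5 calls (7 with DESeq2, 0 with library totals). Among the shares, the pairing changed the call of the nuclear rRNA share (0.534 points, q = 0.115 without the replicate block) and of Mt-nd6 (0.773, q = 0.0613). That rRNA difference was 0.489 and 0.574 in the earlier and later rat numbers and 0.320 to 0.585 with rats left out. The mtDNA share difference was 5.07 in the earlier numbers and 13.8 to 19.5 with rats left out; the mRNA share of mtDNA was -3.10 to -1.82. AY172581.24 gave -1.60 and 4.32 in the earlier and later numbers, Mt-atp8 0.0452 in the earlier, and Mt-nd3 0.0973 in the later and -0.0462 to 0.00837 with rats left out. The median log2 fold change at 1 to 10 minus 100 to 1000 CPM was 6.94 in thinned libraries.

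Directions that changed were, with library totals, Timm10b 0.89, Myh7b 0.52, Robo4 0.37, Mfap5 0.74 and Olr63 0.98; in thinned libraries, Myh7b 1.08, Vwf 0.34 and Robo4 0.91; with DESeq2, Timm10b 0.031 and Olr63 0.13; with RLE, Olr63 0.091; in the later numbers, Olr63 0.10 and Etfb -0.62; without the filter, with nuclear-encoded genes only and without rat 2, Etfb -0.16, -0.054 and -0.0732; and without the block, Alb -0.56. List medians relative to all genes turned for mtDNA mRNAs (0.89 thinned), leukocytes (-0.63 nuclear only, -2.03 unfiltered, -0.46 without rat 2), adipocytes (-0.73 unfiltered, -3.40 thinned), nerve (0.15 DESeq2) and satellite cells (1.68 thinned, 0.35 DESeq2). The cause was not tested. MT depth limits genes near 1 CPM to a few counts per library.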
